A study of Homo sapiens with 2 samples.

Results

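The 10 genes described here are *TTR* and 9 further genes of choroid plexus transport and signalling, *HTR2C*, *CLIC6*, *AQP1*, *SLC4A5*, *SLC13A4*, *OTX2*, *KL*, *FOLR1* and *PRLR*. They were chosen by name from 62704 genes and were found in both of 2 split-seq libraries of brain organoids grown from the human embryonic stem cell line H9. The first library pooled single cells of control organoids (CO, made with the STEMdiff kit) at days 45, 55 and 70, of organoids dissociated at day 45 and reaggregated (DISS) at days 48, 55 and 70, and of constrained organoids (CONS) at day 55, which had lost their Matrigel at day 13 and had then been held in 3% agarose. The second library held nuclei of day 45 CO, taken from whole organoids or after dissociation, although its treatment label also names embedded organoids. Every barcode of a library carries the same sample name, so its condition, day and organoid are not known here. Each library was therefore 1 sample, no conditions were compared and no p-values are given.

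The choroid plexus is an epithelium that forms at the dorsal midline beside the cortical hem, secretes cerebrospinal fluid and moves solutes between that fluid and the blood. *TTR* encodes transthyretin, a secreted carrier of thyroxine and, with retinol-binding protein, of vitamin A, and it is widely used to recognize this epithelium in organoids. The other genes encode an ion channel family member, carriers of bicarbonate and sulfate, a water channel, receptors for serotonin, prolactin and folate, the co-receptor klotho, and the transcription factor OTX2.

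In split-seq, RNA receives a well barcode in each of 3 rounds, and RNA outside cells is barcoded as well. A barcode was kept when it held over 1000 transcripts from over 500 genes and no more than 20% of them were mitochondrial, which left 20178 cells (median 2615 transcripts) and 14228 nuclei (median 3890). Barcodes of 10 to 100 transcripts stood for free RNA (1022725 in the cells and 167580 in the nuclei). Levels are transcripts of a gene per 10000 transcripts. They are not scaled by gene length, so each gene is compared between sets of barcodes and not with other genes. Intervals are exact 95% limits for counting error alone, Poisson for levels and ratios and Clopper-Pearson for shares, and SD values are between sub-libraries, which are technical. Of the kept barcode names, 99 occurred in both libraries (0.491% of the cells and 0.696% of the nuclei). First-round well A8 of the cells stood apart, with 2606 kept barcodes at a median of 1622 transcripts, and it supplied 77.1% of cluster 4, 94.6% of 17 and 93.9% of 18.

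Barcodes were clustered without the 10 genes. A cluster was called choroid plexus-like when at least 3 of 9 other markers (*KCNJ13*, *KCNE2*, *ENPP2*, *SOSTDC1*, *TMEM72*, *RBM47*, *CLDN3*, *KRT18* and *TRPM3*) were at least 2-fold above all other barcodes and no other marker list had more genes among its 10 leading genes. Clusters 7, 13 and 17 of the cells met this rule, with 2011 barcodes (9.97% of those kept, 9.56 to 10.4), as did cluster 15 of the nuclei, with 348 (2.45%, 2.198 to 2.71). Cluster 13 was shallow (median 1570.5 transcripts), and cluster 17 is the one drawn almost wholly from well A8. In each library a further cluster held choroid plexus markers but was led by genes of another list and is kept apart as the mixed-marker cluster. It was cluster 15 of the cells (489 barcodes, 50.7% from well D12), which *PAX3* and *RELN* lead, and cluster 6 of the nuclei (849 barcodes), which *RSPO2* and *LMX1A* lead. In the nuclei, cluster 6 passed 8 of the 9 markers and cluster 15 passed 7, with marker sums of 73.1 and 93.2. Cluster 15 of the nuclei had none of the 9 among its 10 leading genes. These were *FRK*, *DYNLT5*, *ADGB*, *TEKT1*, *TRPV4*, *HOATZ*, *FRMPD2*, *CFAP157*, *CROCC2* and *CCDC60*. It met the rule because no other list had any there. Ratios of choroid plexus-like to other barcodes leave the mixed-marker cluster out of both sets. The remaining 17678 cells and 13031 nuclei are called other barcodes. Choroid plexus-like barcodes were deeper than other barcodes, with medians of 3503 and 2466 transcripts in cells and 9386 and 3796 in nuclei. Their median share of mitochondrial transcripts was 5.31% against 2.29% in cells, where 374 of 2011 and 121 of 17678 were over 10%, and 0.0263% against 0.08999% in nuclei. The part of depth and RNA quality in the differences between these sets was not tested.

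The 9 markers summed to 51.995 against 2.55 per 10000 in choroid plexus-like and other cells and to 93.2 against 2.21 in nuclei, where *CLDN3* had a single count. Some markers of further types were also higher in the choroid plexus-like barcodes. Cortical hem markers summed to 9.43 against 1.09 in cells (4 of 6 at least 2-fold higher) and 7.59 against 0.956 in nuclei (2 of 6). Retinal pigment epithelium markers summed to 3.396 against 0.507 in cells and 7.85 against 0.659 in nuclei (5 of 7 in each), with *RPE65* at 0.639 and 0.646 in the choroid plexus-like sets. Multiciliated markers summed to 1.19 against 0.0659 in cells and 1.65 against 0.0373 in nuclei (5 of 5 in each), and endothelial markers to 0.864 against 0.145 and 0.643 against 0.0362, with *CLDN5* and *KDR* the 2 of 5 that were higher. Mesenchymal markers summed to 0.466 against 0.0685 (3 of 5) and 0.0964 against 0.0506 (1 of 5), and *COL3A1*, *LUM* and *DCN* had 0 counts in choroid plexus-like nuclei. Cajal-Retzius markers summed to 0.671 against 0.472 in cells (2 of 5) and 0.514 against 1.33 in nuclei (1 of 5, *TP73* at 0.473). Those of the inhibitory lineage summed to 0.257 against 0.146 and 0.628 against 0.276 (1 of 6 in each). *GAD1* made up most of the latter sums, at 0.217 and 0.61, while *GAD2*, *DLX2*, *DLX5* and *DLX6-AS1* were lower in both libraries. No marker of radial glia, excitatory neurons, dividing cells or intermediate progenitors was at least 2-fold higher in either library, and all 4 sums were lower. The part of these cell types in the levels below was not tested.

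*TTR* (chromosome 18, 31557009 to 31598833, plus strand, GRCh38, GENCODE release 44) has a canonical transcript that spans 6945 bases in 4 exons. In the cells, *TTR* stood at 28.9 per 10000 in choroid plexus-like barcodes (28.6 to 29.1, with 28.5 ± 3.51 SD over 8 sub-libraries), at 6.47 in the mixed-marker cluster and at 2.44 in other barcodes (2.41 to 2.47, with 2.38 ± 0.421 SD, n = 8). In the nuclei it stood at 6.68 in choroid plexus-like barcodes (6.29 and 7.03 in the 2 sub-libraries), 2.45 in the mixed-marker cluster and 0.156 in other barcodes (0.1403 and 0.168). Pooled levels of the 2 sets did not overlap between sub-libraries (25.3 to 36.7 against 1.76 to 3.08 in cells), but single barcodes did. Of 2011 choroid plexus-like cells, 322 held no *TTR*, and 600 of 17678 other cells held 10 or more *TTR* transcripts. The ratio of choroid plexus-like to other barcodes was 11.8 in cells (11.7 to 11.99) and 42.9 in nuclei (39.9 to 46.3). It was 12.5 in cells without well A8. Over all alternatives run for clustering, naming, wells and doublet scores the ratio lay between 3.89 and 15.4 in cells and 19.2 and 54.8 in nuclei, above 1 in each, and the lowest values in cells rest on 111 choroid plexus-like barcodes or on barcodes named one by one.

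Choroid plexus-like barcodes varied widely in *TTR*. A cell of this set held a median of 5 *TTR* transcripts (quartiles 1 and 15, highest 1468), and 322 of 2011 held none. The level was 31.8, 22.5 and 13.4 in the cells of clusters 7, 13 and 17. A nucleus held a median of 4 (highest 67), and 45 of 348 held none. With every barcode thinned to 1000 transcripts, *TTR* was expected in 65.1% of choroid plexus-like cells (62.9 to 67.1, 83.99% unthinned) and 41.1% of choroid plexus-like nuclei (35.9 to 46.5, 87.1% unthinned).

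*HTR2C* (chromosome X, 114584078 to 114910061, plus strand) encodes the serotonin receptor 2C, and its canonical transcript spans 325976 bases in 6 exons. Its level was 98.9 in choroid plexus-like cells (88.7 to 112 over 8 sub-libraries), 13.1 in the mixed-marker cluster and 2.84 in other barcodes. In the nuclei these levels were 280.1, 123 and 3.57. Every choroid plexus-like nucleus held *HTR2C*, with a median of 216 transcripts, and 108 of the 2011 choroid plexus-like cells held none. At 1000 transcripts *HTR2C* was expected in 88.5% of choroid plexus-like cells and 99.6% of choroid plexus-like nuclei, and in 20.7% and 9.11% of other barcodes.

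The ion and water transporters were also higher in choroid plexus-like barcodes, at fewer counts. *CLIC6* (chromosome 21, 34668994 to 34718227, plus strand), of the chloride intracellular channel family, was at 4.497 and 0.124 in choroid plexus-like and other cells and at 8.11 and 0.0967 in nuclei. *SLC4A5* (chromosome 2, 74216242 to 74343416, minus strand), a sodium bicarbonate cotransporter, was at 4.46 and 0.561 in cells and at 8.78 and 0.532 in nuclei, and it ranged from 0.269 to 0.815 over the 14 other clusters of the cells. *SLC13A4* (chromosome 7, 135681231 to 135729258, minus strand), a sodium sulfate cotransporter, was at 1.69 and 0.0747 in cells and at 3.25 and 0.0522 in nuclei. *AQP1* (chromosome 7, 30911853 to 30925517, plus strand), an apical water channel, was at 0.453 and 0.0267 in cells and at 0.485 and 0.0236 in nuclei. Of these, *SLC4A5* overlaps *MTHFD2* on the opposite strand and a further coding gene on its own strand, *SLC13A4* overlaps *STMP1* and *FAM180A*, and *AQP1* overlaps another coding gene on its own strand. Whether the counting used strand is not given in the sources used here, so reads of overlapping genes cannot be told apart.

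The remaining receptors and the transcription factor ranged from well covered to rare. *PRLR* (chromosome 5, 35048756 to 35230487, minus strand), the prolactin receptor, was at 1.89 and 0.0772 in choroid plexus-like and other cells and at 4.94 and 0.0676 in nuclei. *OTX2* (chromosome 14, 56799905 to 56816693, minus strand), a homeodomain factor of plexus development that *OTX2-AS1* overlaps, was at 2.07 and 0.0676 in cells and at 3.19 and 0.0678 in nuclei. *FOLR1* (chromosome 11, 72189558 to 72196323, plus strand), folate receptor alpha, rested on 311 and 137 counts in cells (0.1699 and 0.0102) and on 13 and 6 in nuclei. *KL* (chromosome 13, 33016423 to 33066143, plus strand), which encodes klotho, rested on 173 and 199 counts in cells (0.0945 and 0.0148) and on 27 and 39 in nuclei. At 1000 transcripts *FOLR1* and *KL* were expected in 1.51% and 0.745% of choroid plexus-like cells, so both were rarely seen in single barcodes at this depth.

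All 10 genes in the cells, and the 9 with at least 50 counts in the nuclei, were at least 2-fold higher in choroid plexus-like than in other barcodes. Beside them, 9.81% of 28471 genes in the cells were at least 2-fold higher and 9.66% at least 2-fold lower, and in the nuclei 13.5% and 26.7% of 20150. The gene left out in the nuclei was *FOLR1*, with 20 counts in all. With *FOLR1* counted, the median ratio of the 10 genes was 19.8 in cells and 45.03 in nuclei, beside 0.918 and 0.7903 over all genes. In the cells the ratios ran from 6.396 (*KL*), 7.96 (*SLC4A5*) and 11.8 (*TTR*) to 34.9 (*HTR2C*) and 36.4 (*CLIC6*). The 10 are known genes of this epithelium and the clusters were named by its other markers, so these ratios are a description.

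**Figure D1:**
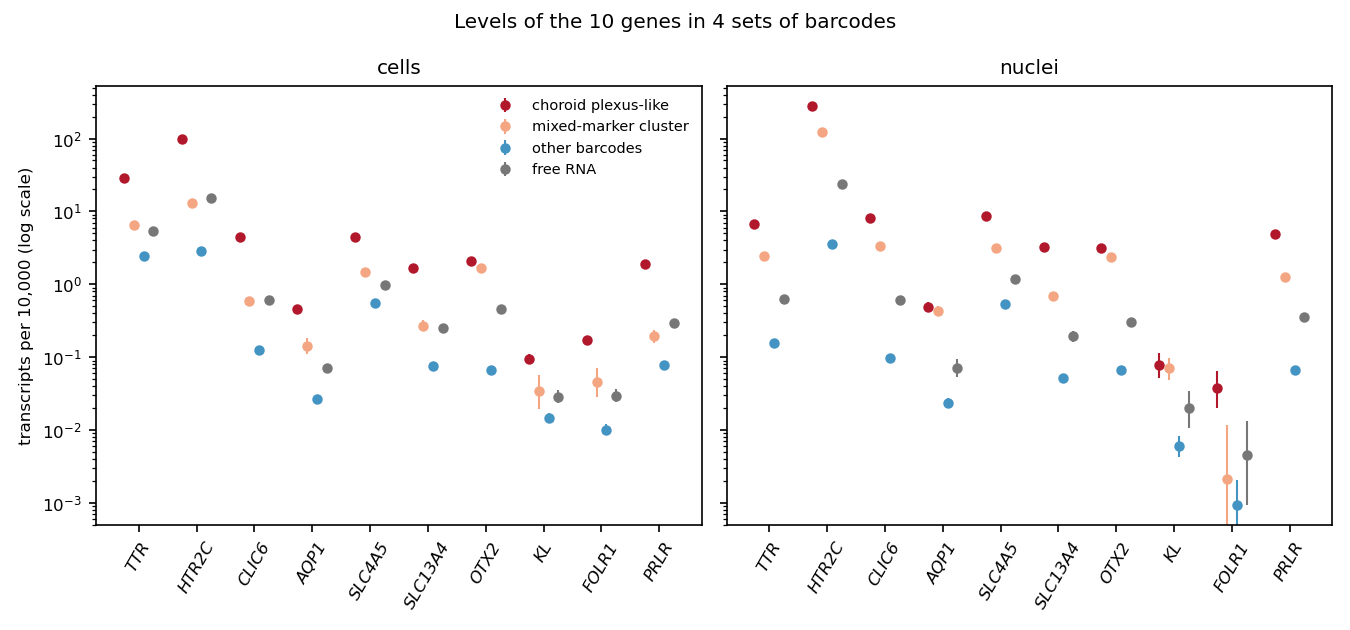
Level of each gene in transcripts per 10000, on a log axis, in choroid plexus-like barcodes, the mixed-marker cluster, other barcodes and free RNA of the cells and of the nuclei, with exact 95% Poisson intervals. Each gene is highest in the choroid plexus-like set, and free RNA lies between that set and other barcodes, as for *TTR* in cells (28.9, 5.36 and 2.44). Other barcodes leave out the choroid plexus-like set and free RNA does not, so this order is a description. In all kept cells *TTR* was at 5.63.

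The promoters of *HTR2C* and *AQP1* are shown as upstream sequence of genes that share this pattern, the first having the most counts and the second holding the TATA box letters close to its start. They are the 250 bases before the start, from RefSeq (GRCh38.p14), at chrX:114583836-114584085 and chr7:30911603-30911852, both on the plus strand, and capitals mark TATAAA.
HTR2C: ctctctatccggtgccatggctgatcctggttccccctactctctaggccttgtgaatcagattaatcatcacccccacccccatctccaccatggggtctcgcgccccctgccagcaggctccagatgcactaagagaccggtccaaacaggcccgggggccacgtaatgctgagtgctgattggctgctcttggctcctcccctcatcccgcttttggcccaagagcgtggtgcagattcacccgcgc
AQP1: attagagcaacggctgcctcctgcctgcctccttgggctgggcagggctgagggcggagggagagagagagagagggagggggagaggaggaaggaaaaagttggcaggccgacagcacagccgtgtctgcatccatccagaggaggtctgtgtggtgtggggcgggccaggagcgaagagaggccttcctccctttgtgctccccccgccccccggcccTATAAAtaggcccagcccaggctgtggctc
The table used held promoters for 7 of the 10 genes and none for *TTR*, *CLIC6* and *FOLR1*. On either strand, the TATA box (TATAAA) was found for *PRLR* and *AQP1* and in 10.7% of all 35116 promoters. The homeodomain core TAATTA was found for *SLC4A5* and *KL* and in 4.35% of all promoters. The core bound by OTX2-type homeodomains, TAATCC, was in 0 of the 10 windows of these genes and in 5.62% of all.

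The mixed-marker clusters set *OTX2* beside lower levels of most transport genes. In the cells, *OTX2* in the mixed-marker cluster was at 81.3% of its choroid plexus-like level, while the other 9 genes were at 10.3% (*PRLR*) to 36.6% (*KL*), with *TTR* at 22.4% and *HTR2C* at 13.3%. In the nuclei *OTX2* was at 75.1%, *AQP1* at 89.4% and *KL* at 88.9%, the last on 33 counts. *TTR* was at 36.6% there, *HTR2C* at 43.9%, *PRLR* at 25.7% and *SLC13A4* at 21.6%. Outside these clusters, *OTX2* of the nuclei was highest in cluster 16, led by *PAX3*, at 0.378, where *TTR* was 0.0605.

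**Figure D2:**
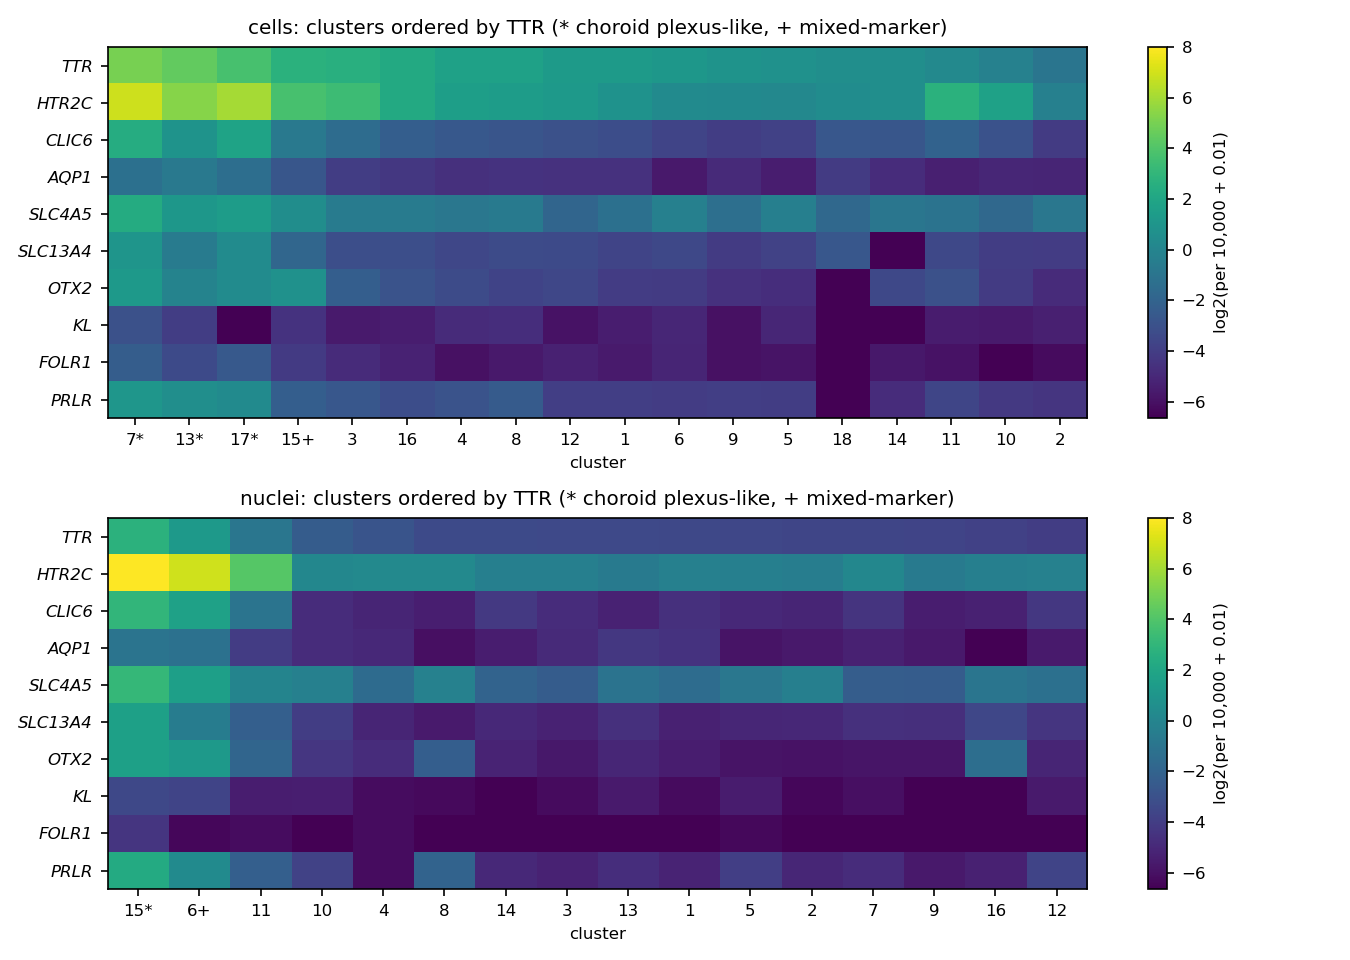
Level of each gene in every cluster of the cells and nuclei, in transcripts per 10000 on a log color scale, with choroid plexus-like and mixed-marker clusters marked. Over the other clusters *TTR* spans 0.506 to 5.99 in cells and 0.0524 to 0.529 in nuclei.

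Further genes of the same pathways were split. Of 23 other transport genes, 22 could be compared in each library, and 12 were at least 2-fold higher and 0 lower in choroid plexus-like cells (median ratio 2.18), with 11 higher and 3 lower in nuclei (median 2.14). *KCNJ13* and *KCNE2*, both counted as higher in each library, also belong to the 9 markers that named the clusters, so the naming rule used their ratios. The shares of all genes that passed the same limits were 9.81% higher and 9.66% lower in cells and 13.5% and 26.7% in nuclei. The 4 with the most counts were *SLC4A10*, a bicarbonate transporter (ratio 1.103 in cells and 1.66 in nuclei), *SLC23A2*, an ascorbate transporter (2.24 and 5.21), *SLC12A2*, a sodium, potassium and chloride cotransporter (2.61 and 4.32), and the carbonic anhydrase *CA12* (2.197 and 4.06). Of 10 partners of the members, 9 could be compared in cells and 7 in nuclei, with 1 and 0 higher, 0 and 3 lower, and medians of 0.809 and 0.623. The 1 of 9 higher in cells is near the 9.81% of all genes, and the 3 of 7 lower in nuclei stand beside 26.7%. *GNAQ*, a G protein subunit through which the serotonin receptor signals, was at a ratio of 0.751 and 0.776, and *FGFR1*, the partner of klotho, at 1.52 and 1.56. Of 8 regulators of the roof plate and plexus, 6 were higher and 1 lower in each library (medians 5.57 and 5.37). *LMX1A*, also on the list of cortical hem markers, was at 23.2 and 33.7 and *BMP7* at 3.597 and 5.55, and the 1 lower gene was *OTX1*, named after its values were seen, at 0.425 and 0.246.

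The genes whose log2 level was most like that of *TTR* over the 18 clusters of the cells were *CD63* (Pearson r = 0.9399), *NPC2*, *IGF1*, *ARMC3* and *ANKRD42* (0.925), of 20733 genes, and the closest of the 9 was *PRLR* (0.908). Over the 16 clusters of the nuclei they were *ABCA4* (0.997), *MIR646HG*, *GPA33*, *CLIC6* (0.989) and *IGFBP7*, of 14794. Over the 48 first-round wells of the cells they were *ABCA4* (0.834), *SLC13A4* (0.825), *ARMC3*, *FOXJ1* and *CFAP47*, and over the 12 wells of the nuclei *CLIC6* (0.9201), *PLXDC2*, *SLC8A3*, *NID2* and *SNHG14*. The points share a library and differ in depth.

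Free RNA of the cells held *TTR* at 5.36 (5.28 to 5.44), close to the 5.63 of all kept cells. Other barcodes leave out choroid plexus-like ones and free RNA does not, so a higher level in free RNA than in other barcodes is a description. First-round wells differed in *TTR* of free RNA. The lowest well was at 0.221 (C5), the median at 1.89 and the highest at 23.6 (D10). *TTR* in other barcodes ran from 0.322 (A3) through 1.098 to 10.9 (D10). The 5 wells with the highest *TTR* of free RNA, D4, D6, D10, D11 and D12, together held 66.9% of the *TTR* of free RNA, 18.3% of all its transcripts and 47.8% of the choroid plexus-like barcodes, and since they were picked by this level, their larger share of *TTR* than of transcripts is a description. Over the 48 wells, *TTR* in other barcodes and in free RNA had a Pearson r of 0.933 and a Spearman rho of 0.886, and r was 0.919 without the 2 wells farthest from the median of free RNA. For the other 9 genes rho ran from 0.183 (*KL*) to 0.663 (*CLIC6*), with 0.598 for *HTR2C*. Pearson r of these 9 ran from 0.239 (*KL*) to 0.885 (*AQP1*, 0.595 without the 2 farthest wells). All points come from 1 library, and rarer genes carry more counting error. *HTR2C* had more counts in free RNA than *TTR* (53169 and 18410), and *SLC4A5* had a rho of 0.236 on 3412 counts. The part of counting error in these differences was not tested.

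Wells with few choroid plexus-like barcodes tended to hold little *TTR*. In the 17 wells with at most 5 of them, *TTR* was 0.221 to 2.47 in free RNA (median 0.865) and 0.366 to 3.06 in other barcodes (median 0.618). In the 7 wells with at least 100 it was 2.16 to 23.6 (median 17.5) and 1.17 to 10.9 (median 5.96). The ranges overlap, since well A2 had 113 choroid plexus-like barcodes with *TTR* at 2.16 in free RNA. Wells A10 and C2 had 0 choroid plexus-like barcodes and still showed *TTR* in other barcodes, at 0.567 (0.407 to 0.769) and 0.618 (0.382 to 0.945), beside 0.576 and 0.865 in free RNA. At 1000 transcripts, *TTR* was expected in 17.9% of other cells (17.4 to 18.5, 39.8% unthinned), from 1.76% to 62.1% between wells with a median of 10.8%.

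**Figure D3:**
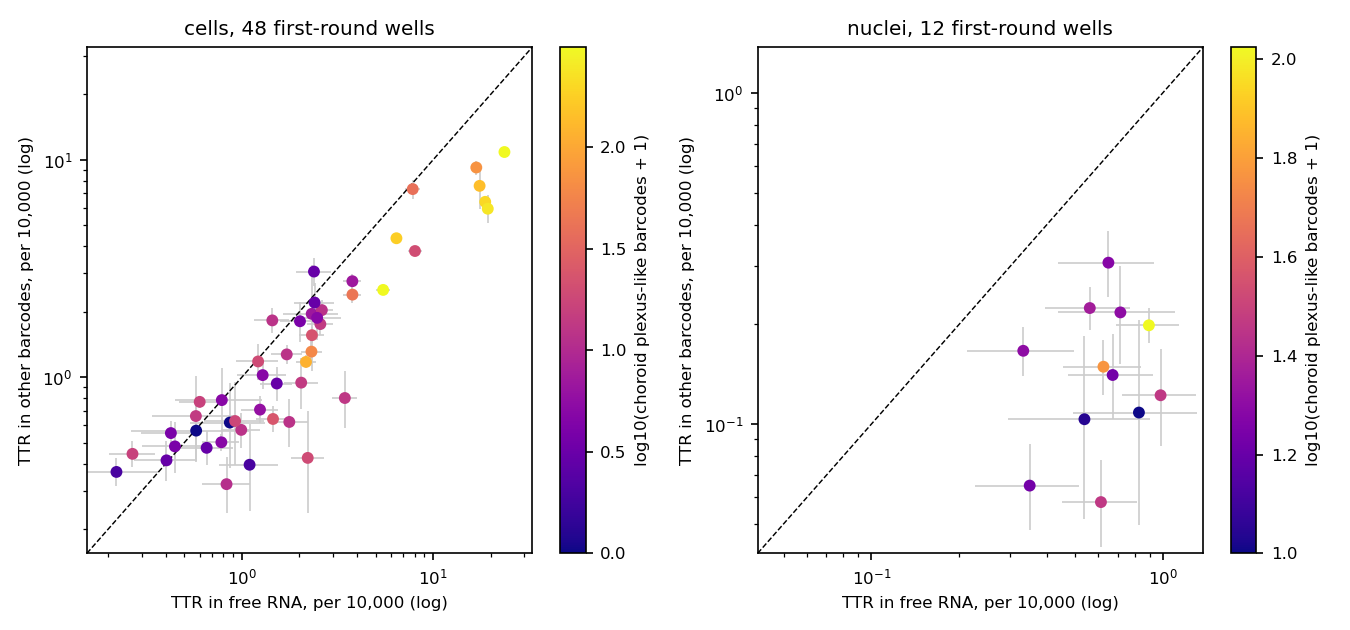
*TTR* in other barcodes against *TTR* in free RNA for each first-round well of the cells (48 wells) and nuclei (12 wells), in transcripts per 10000 on log axes, with exact 95% Poisson intervals. The cells spread from 0.221 to 23.6 in free RNA with 39 of 48 wells higher in free RNA than in other barcodes, as are all 12 wells of the nuclei. Since other barcodes leave out choroid plexus-like ones and free RNA does not, these counts of wells are a description.

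Wells of the later rounds differed less in free RNA of the cells. Between the 5th and 95th percentile of wells, *TTR* of the cells ranged 44.6-fold over first-round wells, 2.18-fold over the second round and 1.33-fold over the third. The variance between wells was 673, 10.4 and 1.37 times that of counting alone. In free RNA of the nuclei, where some wells of the later rounds had 0 counts, the range between these percentiles was 2.74-fold, 6.55-fold and 7.796-fold in the order of rounds. The variance was 3.64, 1.09 and 1.03 times that of counting alone. For *TTR* in other barcodes these multiples were 907, 154 and 42.9 in cells and 15.6, 4.5 and 6.76 in nuclei.

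Within well D10 of the cells, *TTR* in other barcodes was close between several clusters that different genes lead, among those with at least 20 barcodes there. Cluster 1, with *FGFR3* and *SLC1A3* among its leading genes, had 7.17 and cluster 5, with *GRIK3*, had 6.95. Cluster 6, with *PDK1*, was at 6.599 and cluster 9, with *EOMES*, at 6.95, and the intervals of these 4 overlap. Cluster 12, led by mitotic genes, was at 8.71. The shallow clusters 3 and 4, with medians of 1914 and 1146 transcripts in this well, were at 25.8 and 27.8, and the deep cluster 16 (median 39502) was at 17.1. In well A10 of the nuclei, which held the most *TTR* transcripts, *TTR* was between 0.0509 and 0.138 in 10 other clusters, on at most 29 counts each, and at 0.736 in cluster 11.

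Depth went with these levels. In other cells, *TTR* was 3.497 in barcodes of 1000 to 1500 transcripts, 1.94 at 10000 to 20000 and 2.44 above. In other nuclei it was 0.208, 0.0759 at 5000 to 10000, and 0.616 above 20000, where *HTR2C* was 21.2. Cluster 11 of the nuclei (median 10787 transcripts) held *HTR2C* at 17.9 and *CLIC6* at 0.479, against at most 1.19 and 0.0432 in the other 13 clusters of that kind. Scrublet marked 0 barcodes as doublets in each library, so its calls were not used and no doublets were removed. Without the barcodes with the highest doublet scores, the ratio of *TTR* between choroid plexus-like and other barcodes was 12.5 in cells and 54.8 in nuclei. Without thinning, 10651 of 17678 other cells held no *TTR*, as did 95.7% of other nuclei. The 177 other cells with the most *TTR* held 36.7% of its counts in that set (highest 939), and the 130 such nuclei held 56.9%. The pooled levels of other barcodes thus do not describe an even spread over barcodes.

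The proportions of the genes differed between sets. Per 100 *TTR* transcripts, *HTR2C* had 343 in choroid plexus-like cells (339 to 346), 289 in free RNA (284 to 294) and 116 in other barcodes (114 to 118). *CLIC6* had 15.6, 11.5 and 5.06 in the same sets, and *OTX2* 7.19, 8.65 and 2.77. *SLC4A5* went the other way, with 15.5, 18.5 and 22.96. Pooled over clusters, other barcodes of the cells thus held fewer *HTR2C* transcripts for their *TTR* than free RNA did. This was so in 46 of the 47 wells with at least 10 counts of both genes in both sets. Other barcodes leave out choroid plexus-like ones and free RNA does not, so this order is a description, here and in the nuclei. All kept cells held 224830 *HTR2C* and 88497 *TTR* transcripts. The lower proportion of *HTR2C* did not hold in every cluster of other cells. Cluster 11 of the cells held 5997 *HTR2C* and 1083 *TTR* transcripts, and cluster 10 held 2260 and 573. In both, *HTR2C* was higher for its *TTR* than in free RNA and in choroid plexus-like cells. Each remaining cluster of other cells was below free RNA. In the nuclei *HTR2C* had 4193, 3842 and 2293 per 100 *TTR*, and fewer in other barcodes than in free RNA in 11 of 11 wells. Cluster 11 alone held 18274 of the 22838 *HTR2C* and 540 of the 996 *TTR* transcripts of other nuclei. The pooled levels and ratio of other nuclei therefore rest largely on that cluster. In the cells, the deep cluster 16 (383 barcodes, median 24570 transcripts) held 8243 of the 32873 *TTR* and 8248 of the 38182 *HTR2C* transcripts of other cells. The pooled levels of other cells thus also rest in part on 1 small cluster.

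Several of the 10 genes were often seen together in choroid plexus-like barcodes. In 1 draw of 1000 transcripts per barcode, at least 2 genes were present in 78.4% of choroid plexus-like, 36.4% of mixed-marker and 10.4% of other cells. In the nuclei these shares were 91.4%, 50.9% and 1.29%. *TTR* without *HTR2C* was seen in 3.18% of choroid plexus-like and 10.8% of other cells. *HTR2C* without *TTR* was seen in 28.2% and 13.8%.

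Within choroid plexus-like cells, some of the 10 genes varied widely between first-round wells. Over the 29 wells with at least 10 such barcodes, *TTR* ran from 1.07 (D7, 0.4602 to 2.1003) through a median of 12.1 to 98.7 (C7, 95.8 to 102), a 92.6-fold range. *HTR2C* ran from 42.1 (B6) through 97.9 to 206 (A3), a 4.904-fold range. *SLC13A4* ran from 0.133 to 6.03 (45.3-fold), *SLC4A5* 14.2-fold, *CLIC6* 6.58-fold and *OTX2* 3.99-fold, while *PRLR*, *AQP1*, *KL* and *FOLR1* were at 0 in their lowest wells and *PRLR* reached 10.6. A wide spread was thus not particular to *TTR*. The low end of *SLC13A4* came from well D7 and rests on even fewer counts than *TTR* there, so its fold range carries much counting error. The 3 wells lowest in *TTR*, D7, C9 and C10, had 8, 8 and 12 *TTR* counts, and *HTR2C* there was 75.8, 92.2 and 99.1. Single barcodes carried much of some values, with 34.2% of the *TTR* of C7 and 78.1% of that of B11 in 1 barcode, against 6.18% in D10. The median barcode had a *TTR* level of 0 in D7, C8, C9 and C10, 34.1 in D10 and 56.4 in C7. Within cluster 7 alone *TTR* ran from 1.02 to 119.6 over 26 wells and *HTR2C* from 56.9 to 206. The wells carry no condition or day here, and what sets them apart was not tested.

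The genes differed in how they went with *TTR* over these 29 wells. Spearman rho with *TTR* was 0.798 for *FOLR1* (Pearson 0.643, and 0.708 without the 2 wells farthest from the *TTR* median), which had 0 counts in several of them. It was 0.651 for *SLC13A4* (Pearson 0.211 and 0.391) and 0.515 for *PRLR* (Pearson 0.0786 and 0.0926). For *HTR2C*, *CLIC6* and *OTX2* rho was -0.0567, -0.0719 and -0.0394. *TTR* of choroid plexus-like barcodes itself had a rho of 0.802 with *TTR* of free RNA. In 11 wells of the nuclei *TTR* ran from 3.57 through 5.74 to 8.75 and *HTR2C* from 166 through 262 to 349.8.

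**Figure D4:**
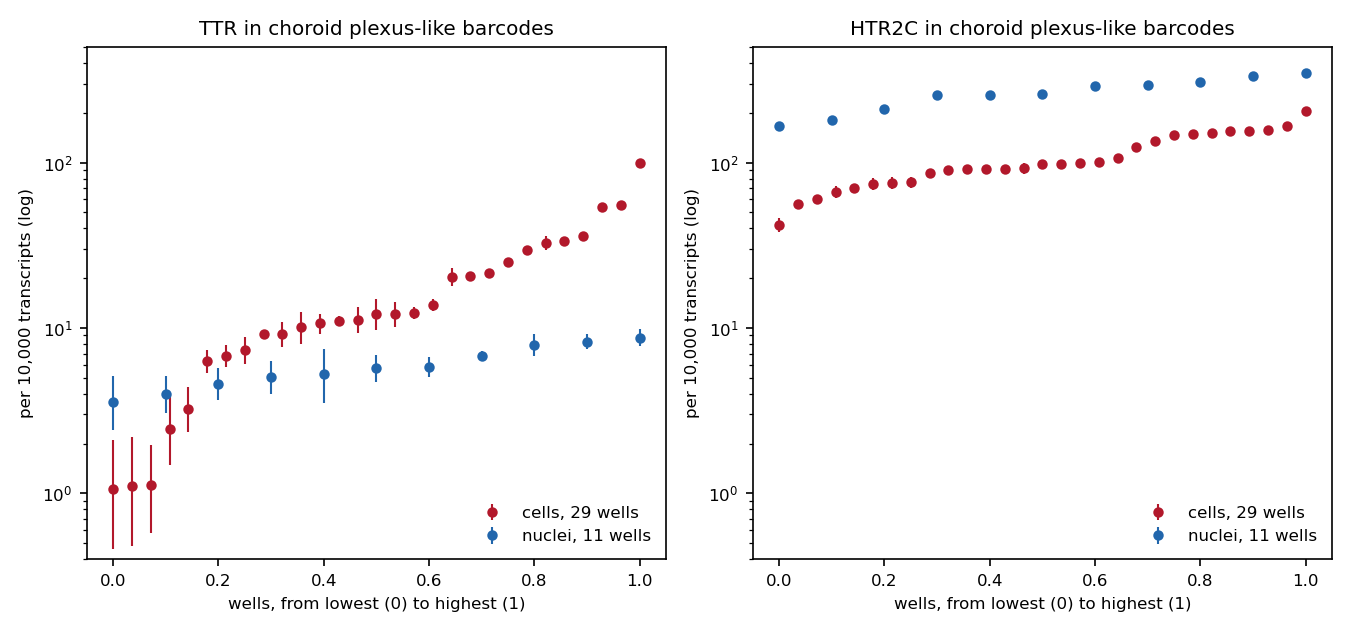
Levels of *TTR* and *HTR2C* in the choroid plexus-like barcodes of each first-round well with at least 10 of them, in transcripts per 10000 on a log axis, with exact 95% Poisson intervals. Over 29 wells of the cells *TTR* spans 1.07 to 98.7 and *HTR2C* 42.1 to 206.

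In the nuclei, *TTR* outside choroid plexus-like barcodes was lower. Free RNA held *TTR* at 0.625 (0.566 to 0.688), beside 0.614 in all kept nuclei. At 1000 transcripts *TTR* was expected in 1.13% of other nuclei (0.954 to 1.32, 4.29% unthinned), with 0.684% to 1.92% between wells. Over the 12 wells, free RNA ran from 0.332 through 0.638 to 0.982 and other barcodes from 0.0581 through 0.145 to 0.307. Their Spearman rho was 0.182 and their Pearson r 0.142 (0.339 without the 2 farthest wells). This correlation depended on the settings, from 0 with free RNA of 10 to 50 transcripts to 0.5105 at Leiden resolution 2, 0.5804 with the 10 genes used in clustering and 0.699 with barcodes named by 3 markers, so no contrast with the cells is drawn from it. *HTR2C* of free RNA was 24.003 in nuclei and 15.5 in cells.

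Between the libraries, choroid plexus-like nuclei and cells differed by gene. In pooled counts *TTR* was lower in nuclei, at a ratio of 0.231 (0.222 to 0.241), and so was *FOLR1* (0.223, 0.118 to 0.388). The pooled *TTR* of the cells rests on its high wells, and the median over wells with at least 10 choroid plexus-like barcodes was 12.1 in cells and 5.74 in nuclei, with all 11 wells of the nuclei inside the range of the 29 wells of the cells. *HTR2C* (2.83, 2.81 to 2.86) and *PRLR* (2.62, 2.47 to 2.77) were higher. Thus 2 of the 10 genes were at least 2-fold higher in nuclei and 2 at least 2-fold lower, beside 3.93% and 30% of 17425 genes, whose median ratio was 0.713. Both sides leave out the mixed-marker clusters, which held 849 nuclei beside 348 choroid plexus-like ones and 489 cells beside 2011. *PRLR* was at 1.27 and 0.194 in those of the nuclei and cells. Whether these ratios and counts hold with the mixed-marker clusters added was not tested. *SLC4A5*, *SLC13A4*, *CLIC6* and *OTX2* lay at 1.97, 1.92, 1.805 and 1.54, and the intervals of *AQP1* (0.8996 to 1.26) and *KL* (0.534 to 1.26) include 1. The ratio went with the span of the canonical transcript, with a Spearman rho of 0.855 over the 10 genes and 0.322 over 17301 genes. *FOLR1* and *TTR* have the shortest spans of the 10 (4160 and 6945 bases) and *HTR2C* and *PRLR* the longest (325976 and 174786). The whole annotated *TTR* gene spans 41825 bases, more than *AQP1* (13665) and *OTX2* (16789), whose ratios were higher. The place of *TTR* in this order thus depends on the measure of span. The libraries also differ in days and conditions, which cannot be told apart from the difference between cells and nuclei.

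**Figure D5:**
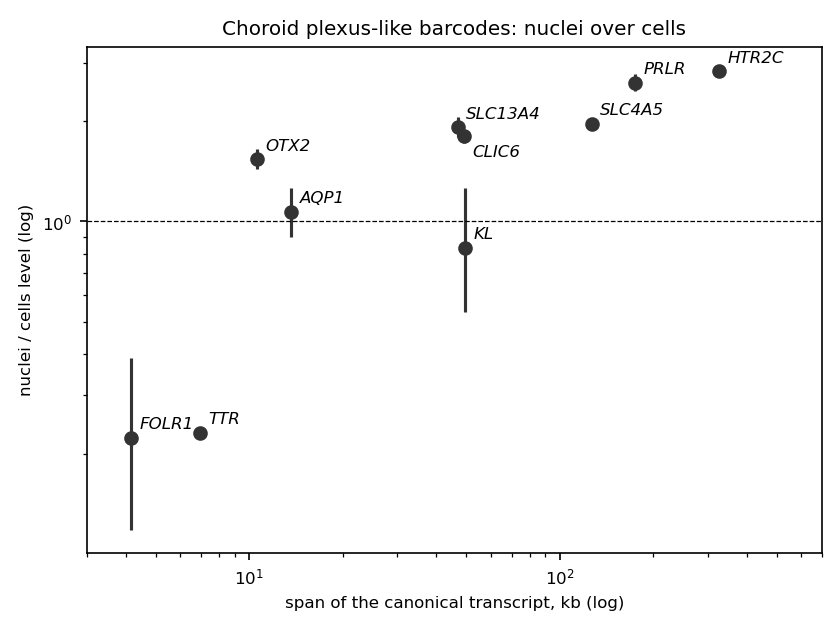
Ratio of the level in choroid plexus-like nuclei to that in choroid plexus-like cells for each of the 10 genes against the span of its canonical transcript in kilobases, on log axes, with 95% intervals for counting error. *TTR* and *FOLR1* lie at 0.231 and 0.223, and *HTR2C* and *PRLR* at 2.83 and 2.62.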

How the data were processed

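Single cells and nuclei of H9 brain organoids were profiled by split-seq. The deposited values are raw transcript counts for every barcode of at least 10 transcripts, which the authors obtained against GRCh38 with the Parse Biosciences software. Barcode names carry the sub-library, of which the cells have 8 and the nuclei 2. The 10 genes and all lists were chosen with earlier results of these data known.

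Counts were summed over sets of barcodes and divided by all transcripts of the set. Kept barcodes were clustered in scanpy 1.11.5 on 2000 variable genes without the 10 (30 components, 15 neighbours, Leiden resolution 1), and clusters are numbered by size. Markers needed 10 counts at 2-fold, and leading genes are the 10 with the highest fold among genes in 25% of a cluster. Shares at 1000 transcripts are expectations over all draws without replacement. No doublets were removed. Genes named besides the 10 are list members with the largest counts in choroid plexus-like barcodes and the 5 genes most like *TTR* on log2(level + 0.1), with at least 200 counts. No test was run, since each library is 1 sample. Steps were tested on simulated data. Alternatives covered limits on barcodes and free RNA, clustering, naming of barcodes, doublet scores, thinning and wells left out. Other tools were numpy 2.4.6, scipy 1.17.1, pandas 2.3.3, scikit-learn 1.9.0 and matplotlib 3.10.9.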

Additional observations from a re-analysis of the deposited data

Results flagged for a closer look

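Barcodes of more than 100 transcripts that were not kept enter no comparison above, and they held *TTR*. In the cells, 260552 such barcodes had *TTR* at 7.64 per 10000 transcripts, 1.42 times its level in free RNA. In the nuclei, 15638 had it at 1.91, 3.06 times its level in free RNA, while *HTR2C* was 18.9 there against 24.003 in free RNA.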

How the results depend on the processing

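Levels, shares and ratios cannot take the opposite sign, so a count of changed signs does not test them. Among alternative values of the main results, 46 moved outside the reported interval and 34 stayed inside it. Among the remaining alternative values, 54 moved outside it and 78 stayed inside. The relation over the wells of the nuclei fell to 0 under 1 alternative. The ratio of *TTR* in choroid plexus-like to other barcodes, 11.8 in cells and 42.9 in nuclei, was 4.55 and 27.7 at Leiden resolution 0.5, 15.4 and 24.98 at resolution 2, 9.58 and 35.3 with the 10 genes among the variable genes, 3.89 and 19.2 for barcodes with at least 3 markers, and 12.5 and 54.8 without the highest doublet scores. In the cells it was 4.69 with another seed and 13.3 without well D10. At resolution 0.5 and with another seed only 111 cells kept the name, because *RPE65* was among the leading genes of the large cluster. Chosen after seeing the data, counting every cluster with at least 3 markers gave 10.1 in cells, with 9.02, 10.4, 9.26 and 9.46 in the 4 other clusterings (same order), and 27.2, 27.7, 24.98, 35.3 and 27.3 in nuclei; leaving out well A8 gave 12.5 in cells. The share of other cells with *TTR*, 17.9%, was 19.8%, 19.8%, 19.8% and 21.1% for resolution 0.5, the 10 genes kept, another seed and 3 markers, 15.8% without D10, and 10.8%, 26.98% and 39.8% at 500, 2000 and all transcripts. In nuclei, 1.13% became 1.5002% at resolution 2, 1.97% for 3 markers, and 0.589%, 1.92% and 4.29% by depth. *TTR* in kept cells, 5.63, was 5.89 with a lower limit on transcripts and an added limit on genes per transcript, changed together, 4.14 at up to 10% mitochondrial transcripts and 4.39 without D10, and in kept nuclei 0.538 without A10 against 0.614. Free RNA of 10 to 50 and 50 to 200 transcripts had *TTR* at 5.28 and 5.88 in cells, and of 50 to 200 at 0.888 in nuclei, with 3054 *HTR2C* per 100 *TTR*. Spearman rho over wells stayed between 0.844 and 0.9104 in cells, the lowest without D4, D6, D10, D11 and D12, an alternative also chosen after seeing the data, but in nuclei, 0.182 as reported, it ran from that 0 with free RNA of 10 to 50 transcripts and 0.01399 without the highest doublet scores, through 0.5105 at resolution 2 and 0.5804 with the 10 genes kept, to 0.699 for 3 markers. The nuclear ratio of *HTR2C* was 2.79 at 2000 transcripts and more. Apart from the 111 cells, the causes were not tested. *FOLR1* and *KL* rest on few counts. No paired analysis was possible because each library is 1 sample.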
